A study of Homo sapiens with 12 samples.

Results

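The genes described here are 9 transcription regulators of 4 related families: PAX3, PAX7, SIX2, SIX4, SIX5, EYA1, EYA2, EYA4 and DACH1. They were taken by name from the 26485 gene rows of the deposited count table, and 8 of the 9 passed the filter on low counts, which kept 15206 genes in all. The cells are RD, an established human line from a rhabdomyosarcoma without a PAX fusion gene. Every group carried a doxycycline-inducible short hairpin against NT5E, the gene of CD73, and the constructs are titled ish and ish2. Cells had 24 h to attach, and then doxycycline (Dox) was given at 10 ng/mL for 96 h or left out. That made 4 groups of 3 libraries: ish without Dox, ish with Dox, ish2 without Dox and ish2 with Dox. Since no group paired Dox with a hairpin that lacks a target, the effects of the drug, of hairpin expression and of NT5E loss cannot be told apart. The labels do not say whether the replicates were separate cultures or whether a construct is 1 clone or a pool, so the p-values measure the spread between these libraries, which may be technical.

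PAX3 and PAX7 are paired-box factors that mark and maintain muscle progenitors in the embryo and, for PAX7, satellite cells in the adult. SIX-family homeodomain proteins bind DNA and recruit EYA proteins, coactivators that also carry phosphatase activity, whereas DACH proteins act as corepressors on the same network. Together they stand upstream of MYOD1 and MYOG, the factors that commit cells to muscle. PAX3 and PAX7 are also the genes that join FOXO1 in the fusion-positive form of the tumour.

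The 250 bases before the RefSeq start of transcription (build GRCh38.p14) are shown for 2 pairs of paralogues whose members behaved differently with Dox, PAX7 with PAX3 and SIX2 with SIX4. They are written 5′ to 3′ on the strand of the gene, in lower case, and capitals mark the CCAAT box, read as CCAAT or, on the other strand, ATTGG. The windows are chr1:18630596-18630845 (plus strand) for PAX7, chr2:222298999-222299248 (minus strand) for PAX3, chr2:45009453-45009702 (minus strand) for SIX2 and chr14:60724352-60724601 (minus strand) for SIX4.
PAX7: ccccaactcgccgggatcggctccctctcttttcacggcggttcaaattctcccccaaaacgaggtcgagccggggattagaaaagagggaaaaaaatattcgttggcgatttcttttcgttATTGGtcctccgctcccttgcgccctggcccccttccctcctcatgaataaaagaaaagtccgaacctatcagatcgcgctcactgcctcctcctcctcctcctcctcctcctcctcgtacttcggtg
PAX3: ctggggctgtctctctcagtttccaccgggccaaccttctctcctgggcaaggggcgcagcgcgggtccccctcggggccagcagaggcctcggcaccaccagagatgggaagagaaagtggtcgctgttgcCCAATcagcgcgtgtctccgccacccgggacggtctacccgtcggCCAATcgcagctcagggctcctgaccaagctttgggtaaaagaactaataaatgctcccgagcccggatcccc
SIX2: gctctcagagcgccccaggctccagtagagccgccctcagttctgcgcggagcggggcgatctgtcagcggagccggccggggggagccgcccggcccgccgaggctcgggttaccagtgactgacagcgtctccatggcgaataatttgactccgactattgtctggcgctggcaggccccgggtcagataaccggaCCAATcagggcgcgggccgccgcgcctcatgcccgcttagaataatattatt
SIX4: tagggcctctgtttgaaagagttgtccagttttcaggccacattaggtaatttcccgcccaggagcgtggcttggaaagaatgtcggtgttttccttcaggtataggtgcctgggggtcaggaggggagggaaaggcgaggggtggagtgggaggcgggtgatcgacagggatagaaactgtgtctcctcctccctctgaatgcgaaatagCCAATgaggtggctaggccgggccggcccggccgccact

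All 4 windows held the CCAAT box, PAX3 with 2 matches and the others with 1, a motif chosen after the sequences had been read. Of 35116 promoter windows of the same length, 32% held it on either strand. It lay 128 bases before the start in PAX7, 118 and 73 in PAX3, 52 in SIX2 and 39 in SIX4. These distances are from the RefSeq starts and depend on the annotation. In GENCODE release 29 PAX7 begins at 18631006, past its window's end at 18630845. SIX2, on the minus strand, begins there at 45009430, and its window lies from 45009453. None of the 4 windows held CANNTG, the E-box that MYOD1 and MYOG bind (61.8% of all windows), its form CAGCTG (14%), TCAGGTT, the MEF3 site of SIX-family proteins (2.79%), TATAAA (10.7%) or TGACG, the core of the cAMP response element (21.2%). These are matches of letters on either strand, CAGCTG being part of CANNTG, and say nothing about which factors bind. Promoter entries were found for 6 of the 9 genes, and EYA1, EYA2 and SIX5 had none. The windows of EYA4 and DACH1, which are not shown, held no CCAAT box. EYA4 held 1 E-box, CAAGTG, 55 bases before the start, and DACH1 held none of the motifs named here.

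In uninduced cells SIX2 was by far the highest of the 9 per length, EYA4, PAX7 and SIX4 followed, and EYA2 and DACH1 were at or near the limit of detection. Levels were compared between genes as CPM per kb, that is the counts-per-million value (CPM, with library sizes scaled by TMM) divided by the length of the reference transcript in kb. SIX2 stood at 98.0, 100.4 and 102.0 CPM per kb in the 3 ish libraries without Dox and at 91.8, 92.2 and 89.9 in those of ish2. Its means were above 95.6% and 94.9% of the 14240 tested genes that had a transcript length. EYA4 followed with 20.7 ± 0.0396 CPM per kb in ish and 21.2 ± 0.314 in ish2 (mean ± SD, n = 3). PAX7 came next with 16.4 ± 0.475 and 15.1 ± 0.314, and SIX4 with 14.3 ± 0.344 and 13.7 ± 0.384 CPM per kb.

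The lower members in uninduced cells were SIX5 at 7.25 ± 0.341 and 6.65 ± 0.200 CPM per kb in ish and ish2, EYA1 at 6.99 ± 0.132 and 8.30 ± 0.0506, and PAX3 at 6.27 ± 0.244 and 5.70 ± 0.233 (SD, n = 3). In ish the ranges of SIX5 and EYA1 overlapped, so their order there is within the spread. Every other pair of neighbours in the order had ranges that did not overlap, in ish and in ish2. EYA2 stood at 0.106 ± 0.0482 and 0.127 ± 0.0302 CPM per kb. DACH1 had 2 reads in all, 1 in each of 2 ish libraries without Dox, and none in the other 10 libraries. A count of 0 allows up to 3 reads, which is 0.0923 to 0.113 CPM in these libraries, for counting error only. DACH1 was therefore not tested.

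**Figure D1:**
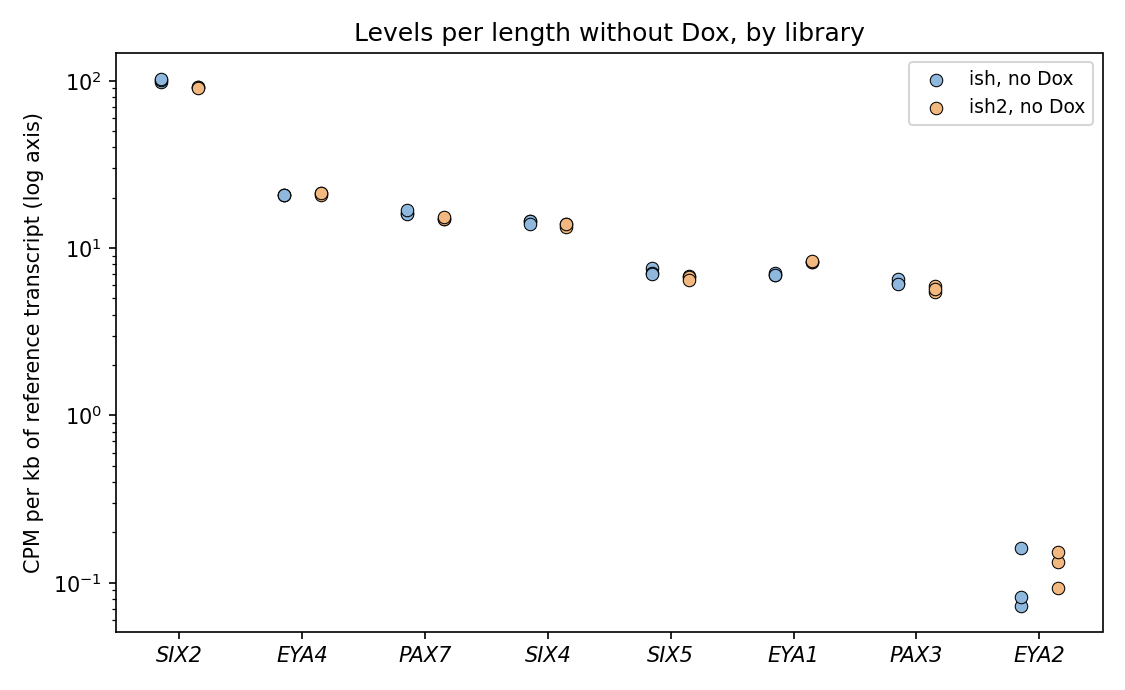
Level per length of the 8 tested genes in each library without Dox, as CPM per kb of reference transcript on a log axis, with ish in blue and ish2 in orange (3 points each). SIX2 sits near 100 in ish and EYA2 near 0.1, and the other 6 lie between them.

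Per length, PAX7 made up 72.4% ± 1.29 of the summed PAX3 and PAX7 level in uninduced ish and 72.6% ± 0.909 in uninduced ish2 (SD, n = 3). This share depends on the PAX3 length used, 2258 bases, and would be higher by its longest transcript of 3170 bases. SIX2 made up 82.3% ± 0.723 and 81.8% ± 0.390 of the summed SIX2, SIX4 and SIX5 level. EYA4 held 74.5% ± 0.336 and 71.6% ± 0.341 of the summed EYA1, EYA2 and EYA4 level. These sums hold only the genes named, and EYA3, which is in none of them, stood at 12.98 ± 0.450 and 13.2 ± 0.576 CPM per kb.

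The uninduced constructs differed little in these genes. By edgeR's quasi-likelihood test (adjusted p under 0.05 over all tested genes, the threshold for a call throughout) 3 of the 8 were called between them, where 26.1% of all tested genes were. Of the 3, 1 was higher and 2 were lower in ish2 (13.7% and 12.4% of all tested genes), and none differed by 2-fold or more (0.421%). EYA1 was 1.19-fold higher in ish2 (log2 difference 0.25, SE 0.04, adjusted p = 5.06e-05), with 35.7, 35.9 and 36.2 CPM against 30.0, 30.9 and 29.8 in ish. SIX2 was 1.10-fold lower in ish2 (-0.13, SE 0.03, adjusted p = 0.000171) and PAX7 was 1.09-fold lower (-0.13, SE 0.03, adjusted p = 0.00486). The PAX7 call was at the threshold without ish no-Dox replicate 3 (adjusted p = 0.05, range over the alternatives 0.00122 to 0.05). For 6 of the 8 genes the 3 libraries of ish all lay outside the range of ish2, against 38.2% of all tested genes.

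NT5E itself, the target, fell 10.7-fold with Dox in ish, from 14.9, 18.0 and 17.3 CPM to 1.94, 1.23 and 1.54, and 1.59-fold in ish2, from 24.1, 23.5 and 22.1 to 14.5, 15.2 and 14.1 CPM. Gene reads per library ran from 26566603 to 32692207. Of the skeletal muscle markers, MYOD1, MYOG, DES, FGFR4, CHRNA1, CHRND and CDH15 passed the filter and MYF5 did not. Blood cell markers summed to 1.63 to 3.80 CPM per library over all 12, with PTPRC, LYZ, CD3E and HBB below the filter and CD68 the 1 tested gene (fell by 0.57 on the log2 scale in ish, not called in ish2 at 0.27). Of the endothelial markers, PECAM1, CDH5 and KDR were below the filter, and of the neural crest and Schwann cell markers SOX10, TFAP2B and S100B were.

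With Dox, 6 of the 8 genes were called in ish, where 78.6% of all tested genes were called, and 6 of 8 in ish2, where 65.0% were. In each construct 3 rose and 3 fell. Across all tested genes 39.1% rose and 39.5% fell in ish, and 33.9% rose and 31.1% fell in ish2. The shares of called members are near these backgrounds, so the count is not a result about the family, and the account below is of which member went which way. PAX3 and SIX5 fell, and SIX4 and EYA4 rose, in both constructs. These 4 compare with 27.9% of all tested genes called in 1 direction in both, and no member was called in opposite directions, against 26.1%. Of the 8, 1 was called with a change of at least 2-fold in ish, EYA2, and none in ish2, against 17.8% and 6.14% of all tested genes. For 7 of 8 genes the Dox libraries all lay outside the range of the libraries without it in ish, and for 7 of 8 in ish2, against 80.6% and 66.6% of all tested genes.

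**Figure D2:**
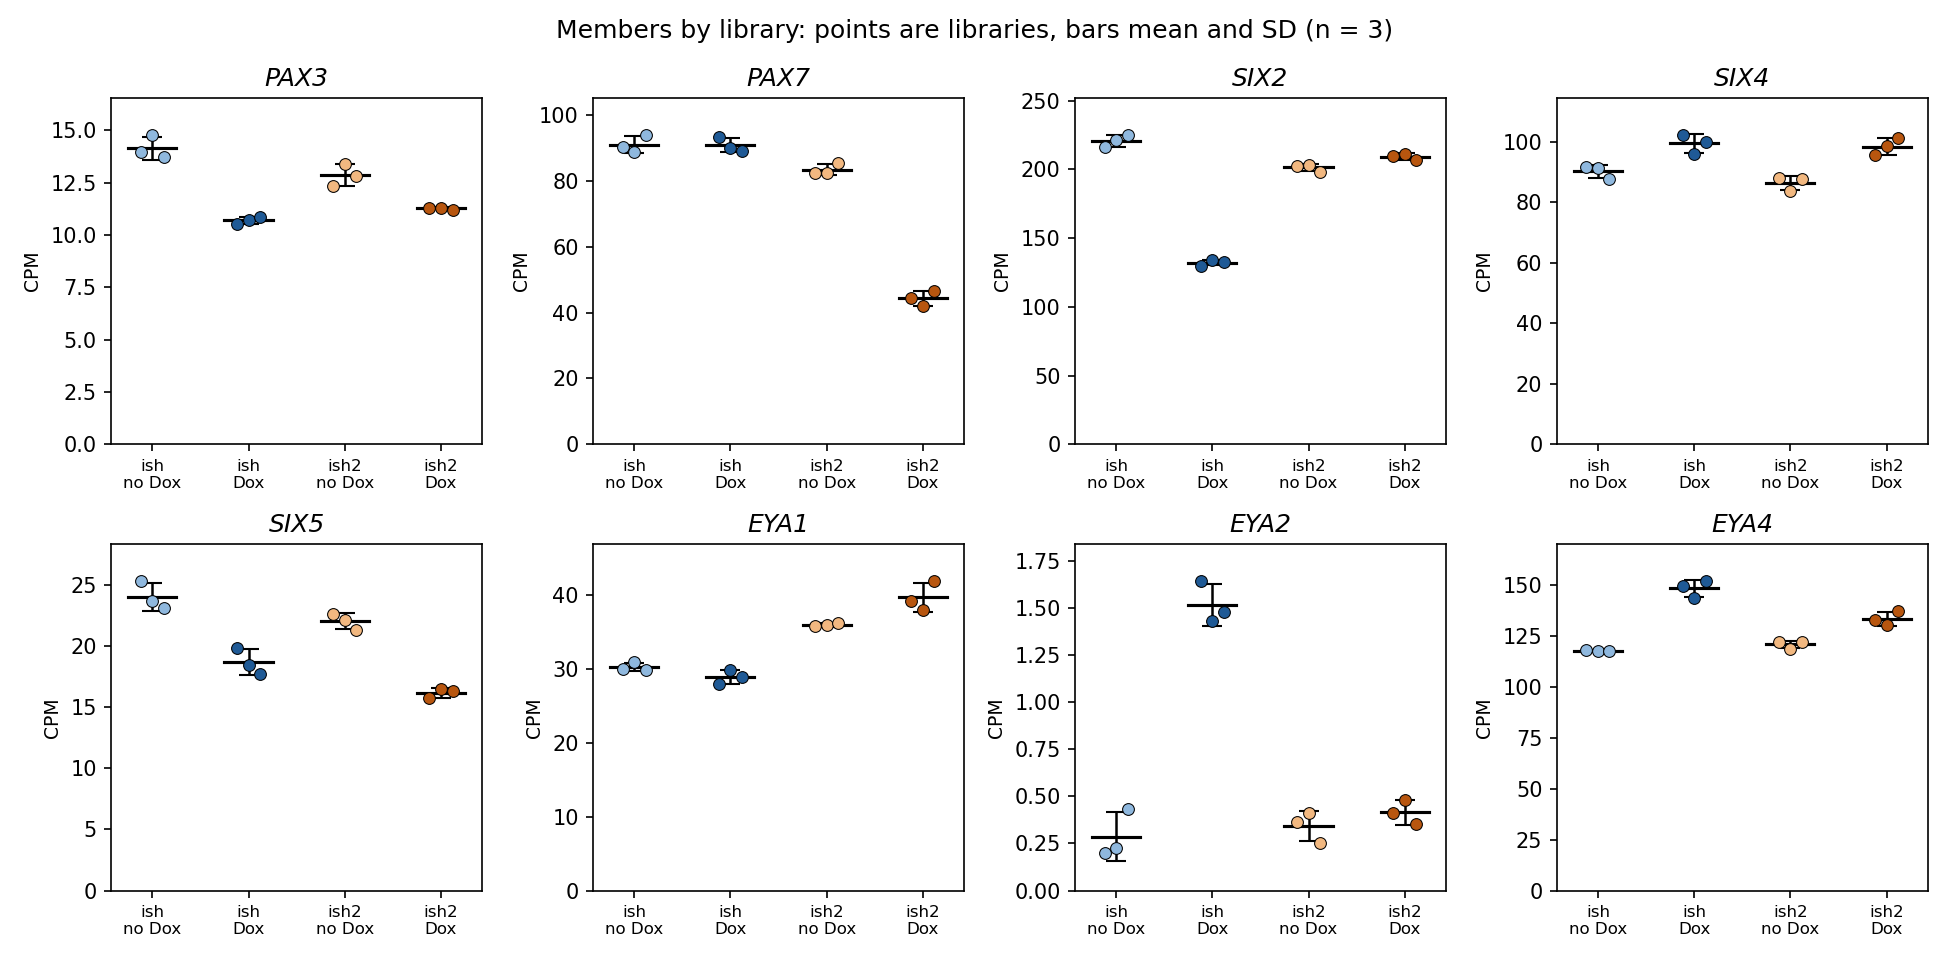
CPM of the 8 tested genes in each library, in 1 panel per gene with its own axis from 0, for ish and ish2 without and with Dox. Points are libraries, and bars give the mean and SD (n = 3). PAX7 drops only in the ish2 libraries with Dox (42.0 to 46.5 CPM), SIX2 only in the ish libraries with Dox (130 to 134 CPM), and EYA2 is raised only there (1.43 to 1.64 CPM).

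PAX7, on chromosome 1 from 18631006 to 18748866 (plus strand, GRCh38, 9 exons in the reference transcript), was at 90.1, 88.8 and 93.9 CPM without Dox in ish and at 93.2, 89.9 and 89.2 CPM with it. The groups overlapped, and the log2 fold change was -0.0034 (95% interval -0.070 to 0.063, edgeR adjusted p = 0.929). The ish2 libraries went from 82.3, 82.5 and 85.4 CPM to 44.4, 42.0 and 46.5 CPM. Every ish2 library with Dox lay below every library without it, a fall of 1.88-fold (-0.91 on the log2 scale, SE 0.04, adjusted p = 9.92e-22). Only 7.96% of tested genes had a larger change in either direction in ish2. The ish2 effect minus the ish effect was -0.91 (SE 0.05, adjusted p = 2.11e-18). In these bulk libraries, fewer cells with a transcript and less of it per cell cannot be told apart.

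PAX3, the paralogue of PAX7 that acts earlier in the embryo, lies on chromosome 2 from 222199888 to 222298996 (minus strand, 9 exons). It went from 14.0, 14.8 and 13.7 CPM to 10.5, 10.7 and 10.9 CPM in ish, a fall of 1.32-fold (-0.40 on the log2 scale, SE 0.06, adjusted p = 2.88e-07). In ish2 it went from 12.4, 13.4 and 12.8 CPM to 11.3, 11.3 and 11.2 CPM, a 1.14-fold fall (-0.19, SE 0.06, adjusted p = 0.00949). The groups did not overlap in either construct. The difference between the effects was 0.21 (SE 0.09, adjusted p = 0.0317), a call that was lost in 10 of 19 alternatives (adjusted p 0.0184 to 0.171 over all of them), among them DESeq2 and the removal of 8 of the 12 libraries in turn. PAX3 was thus lower with Dox in each construct, while the call of a difference in size between them depended on the setting.

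The balance of the PAX pair moved in opposite directions in the 2 constructs. There were 6.46, 6.01 and 6.84 PAX7 reads per PAX3 read without Dox in ish and 8.85, 8.40 and 8.21 with it. In ish2 there were 6.66, 6.15 and 6.65 without Dox and 3.94, 3.71 and 4.14 with it. The groups did not overlap in either construct, and the uninduced constructs shared 1 range. PAX7's share of the pair per length was 77.6% ± 0.667 with Dox in ish and 61.6% ± 1.32 in ish2 (SD, n = 3). In ish the shift came with the lower PAX3 level alone, since PAX7 was not called, and in ish2 PAX7 fell by more than PAX3.

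**Figure D3:**
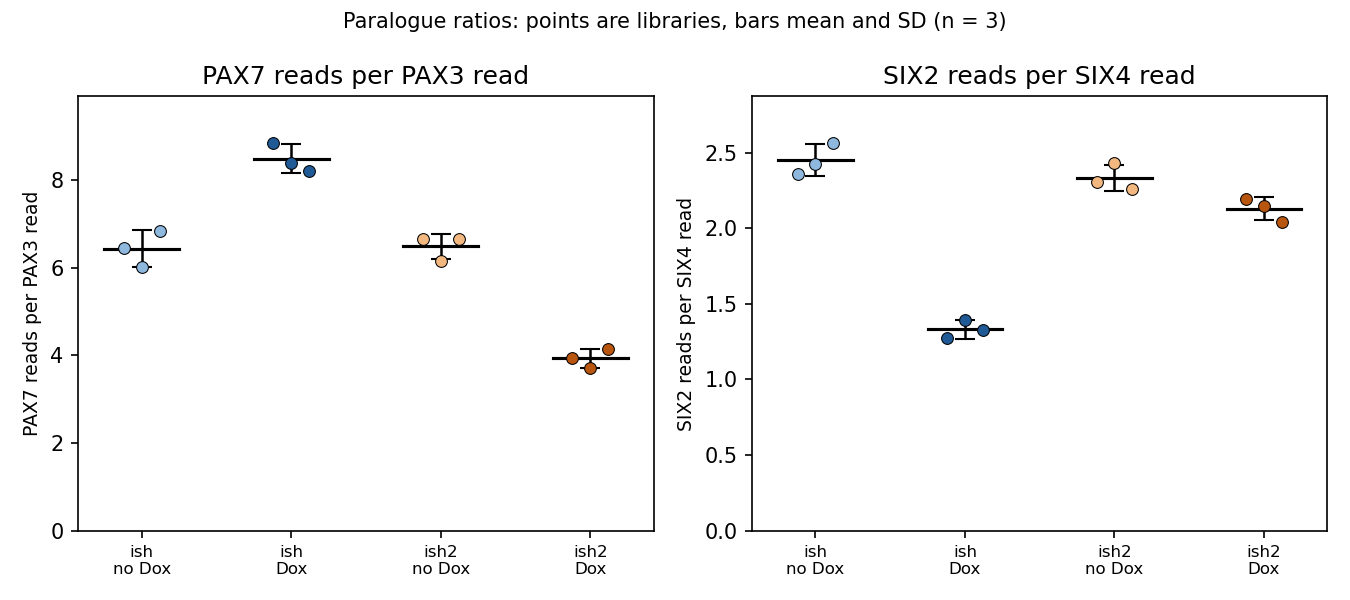
Reads of PAX7 per read of PAX3 (left) and of SIX2 per read of SIX4 (right) in each library of the 4 groups. Points are libraries, and bars give the mean and SD (n = 3). The left ratio is above 8 in all ish libraries with Dox and near 4 in those of ish2, and the right ratio is near 1.3 in the ish libraries with Dox and above 2 in all the others.

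SIX2, best known from progenitors of the nephron and of facial mesenchyme, lies on chromosome 2 from 45005161 to 45009430 (minus strand, 2 exons). It went from 216, 221 and 225 CPM to 129.9, 134 and 132 CPM with Dox in ish, a fall of 1.67-fold (-0.74 on the log2 scale, SE 0.03, adjusted p = 3.39e-24). In ish2 it went from 202, 203 and 198 CPM to 209.7, 211 and 207 CPM. All 3 ish2 libraries with Dox were higher, but the change of 0.056 (95% interval 0.0030 to 0.109) was not called (adjusted p = 0.059, range over the alternatives 0.0549 to 0.409). The effects differed by 0.80 (SE 0.04, adjusted p = 1.96e-20). With Dox in ish, SIX2 stayed the highest of the 9 genes per length, at 59.9 ± 0.939 CPM per kb (SD, n = 3).

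SIX4, which acts upstream of the myogenic factors, rose slightly in each construct. It lies on chromosome 14 from 60709528 to 60724348 (minus strand, 3 exons). In ish it went from 91.6, 91.1 and 87.7 CPM to 102, 96.0 and 99.99 CPM (log2 fold change 0.14, SE 0.03, adjusted p = 0.000137). In ish2 it went from 87.8, 83.5 and 87.6 to 95.5, 98.5 and 101 CPM (0.19, SE 0.03, adjusted p = 4.49e-06). The effects were not called different (difference 0.047, 95% interval -0.045 to 0.139, adjusted p = 0.356).

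SIX5, whose gene adjoins the myotonic dystrophy kinase gene DMPK, fell in each construct. It lies on chromosome 19 from 45764785 to 45769226 (minus strand, 3 exons). In ish it went from 25.3, 23.7 and 23.1 CPM to 19.9, 18.5 and 17.8 CPM (1.29-fold, log2 fold change -0.36, SE 0.05, adjusted p = 9.39e-08). In ish2 it went from 22.7, 22.2 and 21.4 to 15.7, 16.5 and 16.4 CPM (1.36-fold, -0.45, SE 0.06, adjusted p = 1.16e-08). The difference of -0.083 (95% interval -0.240 to 0.073) was not called (adjusted p = 0.334). Of these 3 paralogues, then, SIX2 responded differently in the constructs, while no difference was called for SIX4 and SIX5.

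The makeup of the SIX-family trio changed with Dox in ish. SIX2 held 72.6%, 74.5% and 73.9% of the summed SIX2, SIX4 and SIX5 level per length in the ish libraries with Dox, below all 3 without it (81.5% to 83.0%). The SIX4 share went from 11.8% ± 0.396 to 19.4% ± 0.666 (SD, n = 3). The summed level fell from 121.7 ± 1.35 to 81.4 ± 0.236 CPM per kb in ish, and was 111.7 ± 1.23 without and 115.4 ± 0.923 with Dox in ish2. In ish2 the SIX2 share with Dox (81.7% to 82.7%) overlapped that without it (81.5% to 82.2%), while the SIX5 share dropped from 5.95% ± 0.116 to 4.23% ± 0.0923.

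Of EYA1, EYA2 and EYA4, none was called lower in either construct. EYA4, the most abundant of the 3, rose in ish from 118.1, 117.7 and 117.7 CPM to 149.8, 144 and 152 CPM (1.26-fold, log2 fold change 0.33, SE 0.03, adjusted p = 3.72e-13). In ish2 it rose from 122, 119 and 122 to 133, 131 and 137 CPM (1.10-fold, 0.14, SE 0.03, adjusted p = 4.37e-05). Its rise was smaller in ish2 by 0.19 on the log2 scale (SE 0.04, adjusted p = 8.25e-05). EYA4 lies on chromosome 6 from 133240598 to 133532120 (plus strand, 20 exons).

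EYA1, a coactivator needed in the ear, kidney and muscle, stood at 30.0, 30.9 and 29.8 CPM without Dox in ish and at 27.9, 29.8 and 28.8 CPM with it. The highest library with Dox was just below the lowest without it, and the change of -0.068 (95% interval -0.159 to 0.022) was not called (adjusted p = 0.16). In ish2 it went from 35.7, 35.9 and 36.2 to 39.1, 37.9 and 41.8 CPM (log2 fold change 0.14, SE 0.04, adjusted p = 0.00356). That rise rested on ish2 Dox replicate 3, without which it was 0.086 and no longer called (adjusted p = 0.104, range over the alternatives 0.00334 to 0.104). The effects of Dox on EYA1 differed by 0.21 (SE 0.06, adjusted p = 0.00257).

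EYA2 had few reads and by far the largest fold change of the 8 genes. In ish it had 6, 7 and 14 reads without Dox and 50, 43 and 48 reads with it, or 0.198, 0.223 and 0.435 CPM against 1.64, 1.43 and 1.48 CPM. The groups did not overlap, and the rise was 5.21-fold (log2 fold change 2.38, SE 0.26, 95% interval of the fold 3.60 to 7.54, adjusted p = 3e-10). Leaving out 1 library at a time, that log2 fold change ran from 2.18 to 2.81. Only 3.08% of tested genes changed more in ish. In ish2 there were 10, 11 and 7 reads without Dox and 12, 13 and 11 with it, a change of 0.27 (95% interval -0.45 to 0.98) that was not called (adjusted p = 0.524). The ish2 effect was smaller than the ish effect by 2.11 on the log2 scale (SE 0.46, adjusted p = 0.00012). EYA2 reached the threshold of the filter (0.331 CPM) in all 3 libraries of ish with Dox and of ish2 with Dox, so it did not pass through its high group alone. Without Dox, 1 of 3 libraries of ish and 2 of 3 of ish2 reached that threshold. The uninduced ish mean, 0.285 CPM, was below it, so the fold starts from a level near the floor. EYA2 lies on chromosome 20 from 46894624 to 47188844 (plus strand, 16 exons), and even with Dox in ish it made up only 1.69% ± 0.118 of the EYA1, EYA2 and EYA4 level per length (SD, n = 3).

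**Figure D4:**
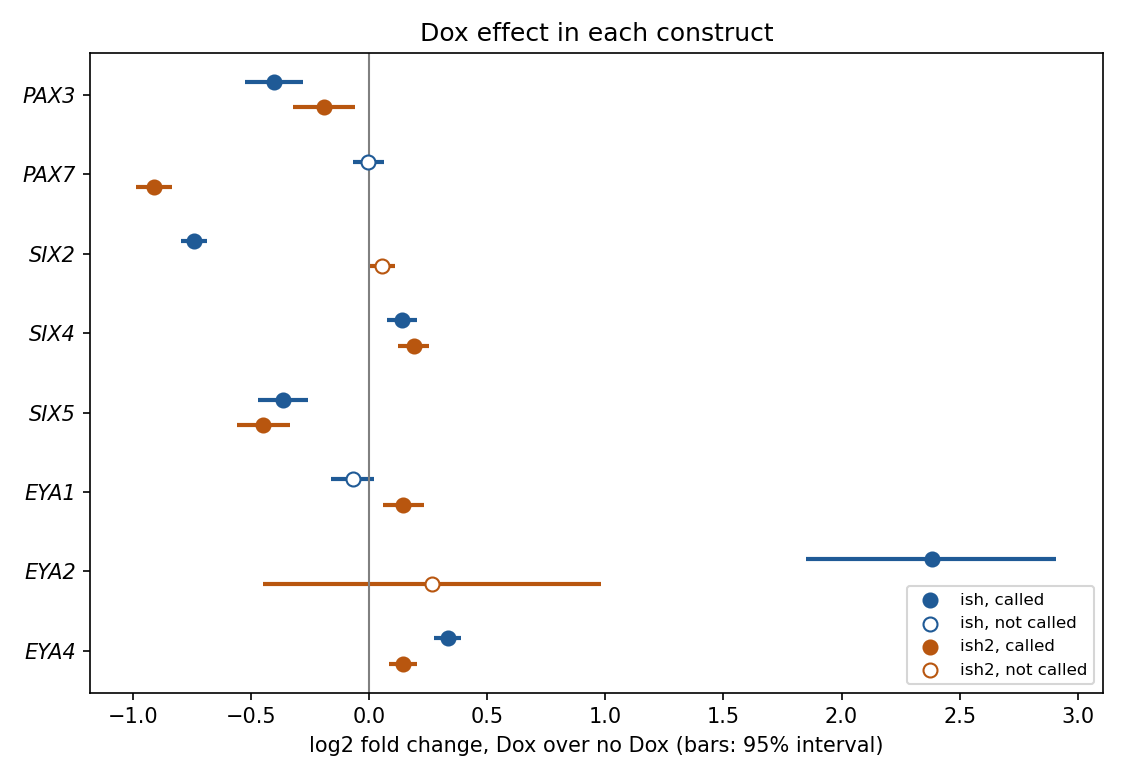
Log2 fold change with Dox for the 8 tested genes in ish (blue) and ish2 (orange), with 95% intervals as bars. Filled points were called and open points were not. EYA2 in ish (2.38), PAX7 in ish2 (-0.91) and SIX2 in ish (-0.74) lie farthest from 0, and 4 genes (PAX3, SIX4, SIX5, EYA4) are filled on the same side of 0 for both constructs.

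The Dox effect differed between the constructs in 6 of the 8 genes, where 72.6% of all tested genes differed. It was higher in ish2 for 3 (PAX3, SIX2, EYA1) and lower for 3 (PAX7, EYA2, EYA4), against 37.4% and 35.2%, and the difference was at least 2-fold for EYA2 alone, against 21.4%. The order of the members by level shifted accordingly. In ish2 with Dox, PAX7 (7.58 to 8.40 CPM per kb) stood below EYA1 (8.77 to 9.66), whereas without Dox it stood above EYA1 and SIX4. In ish with Dox, PAX7 (16.1 to 16.8 CPM per kb) and SIX4 (15.3 to 16.3) had ranges that overlapped.

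Of 11 further genes of these families 6 were tested: 1 was called higher and 3 lower in ish, and none higher and 4 lower in ish2 (median log2 fold change -0.52 and -0.21, against -0.0078 and 0.013 over all tested genes). The background shares were 39.1% higher and 39.5% lower in ish, and 33.9% and 31.1% in ish2. EYA3 rose 1.38-fold in ish (0.46, SE 0.03, adjusted p = 1.75e-15) and fell 1.09-fold in ish2 (-0.13, SE 0.03, adjusted p = 0.00149). PAX6, an eye and brain factor, fell in each construct (-0.79 and -0.39), as did SIX3 (-1.28 and -0.30). PAX2 fell in ish2 (-0.70). PAX5 was called lower in ish (-1.25), but its means there, 0.2865 CPM without and 0.1172 CPM with Dox, were below the filter threshold of 0.331 CPM. PAX1, PAX4 and DACH2 had no reads, and PAX8 and SIX6 did not pass the filter.

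Neighbouring genes did not always move together. SIX2 and SIX3 lie 59.1 kb apart on opposite strands of chromosome 2 with no protein-coding gene between them, and both fell in ish. In ish2 SIX3 was called lower (-0.30) and SIX2 was not called (0.056). SIX5 and DMPK lie 490 bases apart on the same strand of chromosome 19. DMPK rose 1.95-fold in ish (log2 fold change 0.96) and fell 1.45-fold in ish2 (-0.54), while SIX5 fell in each.

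Of 21 cofactor genes of these proteins, 20 were tested, with 4 called higher and 11 lower in ish (median -0.11) and 5 higher and 8 lower in ish2 (median -0.047). Over all tested genes 39.1% were called higher and 39.5% lower in ish, and 33.9% and 31.1% in ish2 (medians -0.0078 and 0.013). WDR5, a subunit of the histone methyltransferase complex that PAX7 recruits, rose in ish (0.75) and fell in ish2 (-0.28). HIPK2, a kinase, fell in ish (-1.08) and rose in ish2 (0.29), and SKI, a relative of DACH proteins, did likewise (-0.23 and 0.28). SIN3A, a corepressor scaffold, fell by 0.46 and by 0.092. DAXX, a repressor that binds PAX3, fell in each construct (-0.49 and -0.34). PAXIP1 fell in ish2 (-0.51) and was not called in ish (0.021). PAXBP1, which joins PAX3 and PAX7 to chromatin modifiers, was not called in either (-0.051 and -0.045).

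Of 14 genes described elsewhere as targets of PAX3 or PAX7, 9 were tested, with 5 higher and 4 lower in ish (median 0.16) and 4 higher and 2 lower in ish2 (median 0.17). The shares of all tested genes were 39.1% higher and 39.5% lower in ish, and 33.9% and 31.1% in ish2 (medians -0.0078 and 0.013). MET and FGFR4, receptors of migrating and dividing muscle progenitors, fell in each construct: MET by 0.45 and 0.49 and FGFR4 by 1.02 and 0.64. MYOD1 rose in each (1.596 and 0.17). SPRY1, a receptor signalling inhibitor, fell in ish (-1.42) and rose in ish2 (0.35), and HES1 did so too (-0.42 and 1.31). TGFB2 rose in each (2.63 and 0.38). MYF5, DMRT2, RET, NEUROG2 and FOXC2 did not pass the filter. Binding was not measured here, so the list shows the direction of these mRNAs only.

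Of 17 genes described as targets of SIX-family and EYA proteins, 15 were tested, with 9 higher and 5 lower in ish (median 0.35) and 9 higher and 4 lower in ish2 (median 0.17). Among all tested genes 39.1% were higher and 39.5% lower in ish, and 33.9% and 31.1% in ish2 (medians -0.0078 and 0.013). Named here are the list's genes with the smallest p, and MYOG. In ish these were MYOD1, MYC (-0.997 in ish, 0.41 in ish2), DMPK and CCND1 (-2.09 and -0.72). In ish2 they were IGFBP5 (0.35 in ish, 2.02 in ish2), SALL1 (-2.26 and 2.39), EZR (-0.49 and 0.45) and DMPK. MYOG, the terminal differentiation factor, rose by 2.62 in ish and fell by 2.24 in ish2.

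Of 20 satellite cell and progenitor markers, 17 were tested, with 6 higher and 11 lower in ish (median -0.32) and 5 higher and 11 lower in ish2 (median -0.12). For all tested genes the shares were 39.1% higher and 39.5% lower in ish, and 33.9% and 31.1% in ish2 (medians -0.0078 and 0.013). HEY1, a NOTCH target, fell by 1.19 in ish and by 0.079 in ish2. NCAM1 rose by 0.99 in ish and was not called in ish2 (0.0036). FGFR1 fell in each construct (-0.56 and -1.09). HEYL rose in ish (0.51) and fell in ish2 (-1.09). CAV1 fell by 0.25 in ish and rose by 0.96 in ish2, and DES rose in each (0.82 and 0.65).

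Markers of differentiation moved in opposite directions in the constructs, and most markers of division fell in both. Their part in the results above was not tested. All 12 differentiated muscle markers rose in ish (median 3.25) and all 12 fell in ish2 (median -1.24). By comparison, 39.1% of all tested genes rose and 39.5% fell in ish, and 33.9% rose and 31.1% fell in ish2. Their summed level per library was 1284 to 1359 CPM without and 5645 to 6059 CPM with Dox in ish, and 1301 to 1355 CPM without and 827 to 888 CPM with Dox in ish2. Of the 8 lineage markers 7 were tested, with 5 higher and 2 lower in ish and 2 higher and 4 lower in ish2. Of the 10 dividing cell markers, 8 fell in ish (median -1.02) and 9 in ish2 (median -0.39), with none higher. Their summed level was 2562 to 2637 CPM without and 1297 to 1318 CPM with Dox in ish, and 2654 to 2925 CPM without and 1782 to 1853 CPM with Dox in ish2.

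Lists of other cell types were called at shares that, with 4 to 6 genes tested in each, are not set apart from the 78.6% of all tested genes in ish and 65.0% in ish2. Of the 9 neural crest and Schwann cell markers 6 were tested, with 2 higher and 3 lower in ish and 2 higher and 1 lower in ish2. Their summed level was 1053 to 1180 CPM without and 846 to 954 CPM with Dox in ish. In ish2 it was 1164 to 1218 CPM without and 963 to 1033 CPM with Dox. Of the highest genes in this list, NGFR fell in ish (-1.88) and was not called in ish2 (-0.068). ERBB3 rose in ish (1.77) and fell in ish2 (-1.585). Of the 9 nephron progenitor markers 4 were tested, with 1 higher and 2 lower in each construct. Their summed level was 14.7 to 15.99 CPM without and 20.4 to 21.9 CPM with Dox in ish, and 13.7 to 15.1 CPM without and 17.6 to 18.3 CPM with Dox in ish2. In ish CITED1 rose (0.94), SALL1 (-2.26) and OSR1 (-1.55) fell and PAX2 was not called (0.14). OSR1 was near the filter threshold of 0.331 CPM there, at 0.640 ± 0.279 CPM without and 0.214 ± 0.0278 CPM with Dox (SD). In ish2 SALL1 rose (2.39), CITED1 (-0.80) and PAX2 (-0.70) fell and OSR1 was not called (-0.19). Of the 7 endothelial markers 4 were tested, with 1 higher and 2 lower in ish and 1 higher and 1 lower in ish2. Their summed level was 115.5 to 124 CPM without and 62.4 to 64.4 CPM with Dox in ish, and 119 to 132 CPM without and 131.6 to 142 CPM with Dox in ish2.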

How the data were processed

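The authors deposited raw read counts per gene symbol for 12 libraries, without normalization. Per the labels' protocols these were stranded mRNA libraries sequenced as 75-base paired-end reads. Tools named in the submitters' processing notes are STAR 2.7.3a, Subread 1.6.3, featureCounts and Trim Galore 0.6.4, with the build GRCh38. The sources used here give neither the annotation nor the strand setting of the counting. The 5 rows of unassigned reads were left out. Groups came from the titles, and the column headers' Sh1 was taken as ish.

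Genes were filtered by filterByExpr (15206 kept, threshold 0.331 CPM), scaled by TMM and fitted as 4 group means with edgeR 4.0.16 (glmQLFit, robust, R 4.3.3), with p-values adjusted by Benjamini-Hochberg over all tested genes. The common dispersion was 0.000596, so small folds pass. Fold changes are Dox over no Dox. SE is the log2 fold change over the square root of the F statistic, an approximation from which the 95% intervals follow. Lengths, exons and positions are from GENCODE release 29 (GRCh38), using the principal transcript; 93.6% of tested genes had a length. Replicate numbers did not pair the libraries (correlations of residuals -0.0798 to 0.0381, 3 of 12 libraries nearest to their own number). Replicates differed by more than counting noise (chi-square per degree of freedom 1.34 to 4.22). DESeq2 1.42.0 and limma 3.58.1 were alternatives.

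The members and the 12 gene lists (142 of 143 entries matched, without entries that are not reported here) were chosen with earlier results of these data known. All members and NT5E are named, with up to 4 genes per list and construct by smallest p; EYA3 and a few others were named after their values were seen. For each tested member the 3 genes most like it by Pearson's r over the 12 libraries are named, among genes with a mean log2 CPM of at least 1. The fit was tested on simulated data: of genes planted at 1.25-fold, 78% were called in ish, 78% in ish2 and 66% for the difference of effects, and 76% between uninduced constructs, among 14985, 14993, 15001 and 15006 genes tested. Unplanted genes were called 10, 2, 9 and 13 times. The simulation gave every gene the same dispersion, 0.0006, and changed few genes, 50 of them at 1.25-fold. In the data far more genes were called, so these rates need not carry over.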

Additional observations from a re-analysis of the deposited data

Results flagged for a closer look

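For 6 of the 8 genes the Dox effect in ish2 differed from that in ish by edgeR's test of the difference (adjusted p under 0.05), where 72.6% of all tested genes did, so the count is near the background. On the log2 scale, ish2 minus ish, the difference was -2.11 for EYA2 (adjusted p = 0.00012), -0.91 for PAX7 (2.11e-18), 0.80 for SIX2 (1.96e-20), 0.21 for EYA1 (0.00257), 0.21 for PAX3 (0.0317) and -0.19 for EYA4 (8.25e-05). EYA2 rose in ish and was not called in ish2, PAX7 fell in ish2 and was not called in ish, and SIX2 fell in ish and was not called in ish2. EYA1 rose in ish2 and was not called in ish. PAX3 and EYA4 moved the same way in each construct, with the larger change in ish, and the PAX3 difference was lost in 10 of 19 alternatives. Groups of 3 libraries are too small for a test of single outlying libraries.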

How the results depend on the processing

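For the 8 tested genes, 32 effects were recomputed under other scalings, filters, tools and sets of libraries, giving 632 values, of which 616 kept direction and call, 12 lost the call, none gained one and 4 changed sign. All 4 were PAX7 in ish, which was not called in any alternative and lay near 0: it was 0.0085 with DESeq2 size factors in edgeR, 0.0077 with DESeq2, 0.012 without ish no-Dox replicate 3 and 0.0057 without ish Dox replicate 3, against -0.0034 as reported and a range of -0.027 to 0.012 over the runs without 1 library. Of the 12, 10 were the PAX3 difference, which fell to 0.18 without ish no-Dox replicate 2 (adjusted p = 0.0927) and was 0.19 with DESeq2 (adjusted p = 0.171) and 0.22 without the filter (adjusted p = 0.0525). The others were EYA1 in ish2 without ish2 Dox replicate 3 (0.086) and PAX7 between uninduced constructs without ish no-Dox replicate 3 (-0.10). Leaving out 1 library at a time, 6 of the 8 were called in ish each time, 5 to 6 in ish2, 5 to 6 for the difference and 2 to 3 between uninduced constructs. Among all tested genes, those runs called 11544 to 12140 in ish and 9350 to 9893 in ish2. They called 10807 to 10977 for the difference and 2985 to 4099 between uninduced constructs. With a replicate block, 11821, 9695, 10891 and 3918 genes were called in ish, in ish2, for the difference and between uninduced constructs, against 11945, 9883, 11039 and 3974 without it, and 6, 6, 6 and 3 of the 8 genes, as without it. A fit from 6 libraries was not run for the difference, which needs all 12. By the longest transcript the PAX3 level per length was 4.46 in place of 6.27 CPM per kb in uninduced ish, which would raise the PAX7 share of the pair. The PAX7 reads per PAX3 read do not use lengths. The other 8 genes have their reference transcript as the longest. Depth limits EYA2, whose interval in ish2 spans -0.45 to 0.98, and DACH1.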

Other observations

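The genes whose log2 CPM over the 12 libraries was most like that of a member are given as a description, since all values share the same libraries. Nearest to PAX7 was SEMA3B, a secreted semaphorin (Pearson r = 0.996, Spearman rho = 0.797), which was at 27.8 and 27.6 CPM without and with Dox in ish and at 21.6 and 3.98 CPM in ish2. FARP1 (r = 0.994), a regulator of the cytoskeleton, and the importin gene IPO9 (r = 0.994) followed. Nearest to SIX2 were ITGB5, an integrin subunit (r = 0.998), KLHDC8B (r = 0.997) and the non-muscle myosin MYH14 (r = 0.996). ITGB5 went from 193.6 to 81.3 CPM in ish and from 161.6 to 178.5 CPM in ish2. Nearest to EYA4 were TMEM9B (r = 0.992), EFR3A (r = 0.992) and RNF103 (r = 0.991), and nearest to EYA2 were PIP5K1C (r = 0.975), TJAP1 (r = 0.975) and API5 (r = 0.973). Their Spearman rho with EYA2, a gene of few reads, was 0.860, 0.846 and 0.860. Pearson's r does not compare the size of changes: in ish these 3 had log2 fold changes of 0.249, 0.705 and 0.637, against 2.38 for EYA2.

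PAX3 was followed most closely by LTBP3 (r = 0.979), CCR10 (r = 0.978) and B4GALNT4 (r = 0.978), and SIX5 by ARHGEF25 (r = 0.980), RCCD1 (r = 0.978) and FNBP1L (r = 0.975). JAKMIP2 (r = 0.963), RAB22A (r = 0.945) and DYRK2 (r = 0.944) were nearest to SIX4, and CHSY3 (r = 0.972), ZNF829 (r = 0.969) and CHAC1 (r = 0.968) to EYA1. Many genes share these patterns: of 11485 genes compared, 1763 had r of at least 0.9 with SIX2, 996 with EYA2, 845 with EYA4, 571 with PAX7, 337 with PAX3, 300 with SIX5, 244 with EYA1 and 85 with SIX4.

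Genes on the opposite strand overlap some members, and the sources used here do not say whether counting used strand. CCDC140, which overlaps PAX3, was at 0.471 CPM without and 1.30 CPM with Dox in ish, where PAX3 fell, and at 0.340 and 0.496 CPM in ish2. TARID, which overlaps EYA4, was at 1.30 and 1.22 CPM in ish and at 1.18 and 0.834 CPM in ish2, far below EYA4 in each group.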
